A study of Mus musculus with 6 samples.

Results

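The acute phase reactants described here are 10 genes whose products the liver releases, or displays on its cells, during inflammation: Saa1, Saa2, Saa3, Orm1, Orm2, Hp, Hpx, Lcn2, Cd14 and Apcs. They were chosen by name, and every probe set (a group of short probes made to report one transcript) that carried one of their symbols alone was taken. Of the 10 genes, 9 were found, with 12 probe sets, among 8251 genes named on the array. Saa1 had no probe set of its own. One further probe set carried the symbols of more than 1 gene, members among them, and was not used.

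Liver RNA came from 6 male C57BL/6J mice, wild type and 8 to 10 weeks old, with 1 mouse on each Affymetrix U74Av2 oligonucleotide array. In 3 BDL mice the common bile duct had been ligated and cut 1 day earlier, which stops the flow of bile. In 3 sham mice the abdomen had been opened 1 day earlier and the duct left intact. Methoxyflurane anaesthesia and laparotomy were therefore shared by both groups, no mouse without an operation was analysed here, and every difference below is that of BDL over an operated control. The BDL mice are numbered 1, 12 and 3 and the sham mice 1, 2 and 3, as in the labels.

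Acute phase proteins are plasma proteins whose synthesis in hepatocytes responds to cytokines, chiefly interleukin-6 acting through STAT3 and interleukin-1 and tumour necrosis factor acting through NF-kappaB, together with factors of the C/EBP family. Surgery alone sets off this response, as do infection and tissue injury. Serum amyloid A proteins ride on high-density lipoprotein, the orosomucoids bind drugs and lipids, haptoglobin and hemopexin clear free hemoglobin and heme, and lipocalin 2 withholds iron from bacteria. In mice serum amyloid P component, encoded by Apcs, is an acute phase protein of liver.

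Sequence matters for the serum amyloid A genes, because close copies can hybridize to the same probes. In the RefSeq genes of GRCm38.p6, Saa2 is an older symbol of Saa1 and Saa1 an older symbol of Saa2, and the platform annotation gave both probe sets of this pair to the gene ID of Saa2. The 250 bases before an annotated transcription start of Saa1 and of Saa2 were 94.8% identical over 251 aligned columns, against 52.2% between Saa1 and Saa3. The RefSeq genes of Saa1 and Saa3 span chr7:46740497-46743181 and chr7:46711998-46719615. The Saa1 window thus lies partly, and the Saa3 window wholly, within its gene, before an internal start. Identity of these windows does not measure sharing of probes, and transcript and probe sequences were not compared. These windows from RefSeq (GRCm38.p6) are shown to let the near copies be set beside the third gene, with that of Lcn2, which had the largest positive difference of the secreted reactants. Each reads 5′ to 3′ in the direction of its gene, and capitals mark matches of the C/EBP core TTNNGNAA on either strand, counted where matches overlap as well. The Saa1 window lies at chr7:46742981-46743230 on the minus strand, that of Saa2 at chr7:46751583-46751832 on the plus strand, that of Saa3 at chr7:46715677-46715926 on the minus strand and that of Lcn2 at chr2:32387740-32387989 on the minus strand.
Saa1: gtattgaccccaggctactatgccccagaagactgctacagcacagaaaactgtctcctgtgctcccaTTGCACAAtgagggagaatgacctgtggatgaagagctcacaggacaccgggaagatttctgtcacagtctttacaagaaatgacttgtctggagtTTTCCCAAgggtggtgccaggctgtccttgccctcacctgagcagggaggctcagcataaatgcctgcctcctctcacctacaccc
Saa2: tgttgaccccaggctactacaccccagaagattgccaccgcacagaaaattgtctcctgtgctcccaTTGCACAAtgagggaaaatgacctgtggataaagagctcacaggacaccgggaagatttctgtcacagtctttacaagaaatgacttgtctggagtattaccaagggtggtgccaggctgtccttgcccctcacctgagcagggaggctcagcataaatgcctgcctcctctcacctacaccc
Saa3: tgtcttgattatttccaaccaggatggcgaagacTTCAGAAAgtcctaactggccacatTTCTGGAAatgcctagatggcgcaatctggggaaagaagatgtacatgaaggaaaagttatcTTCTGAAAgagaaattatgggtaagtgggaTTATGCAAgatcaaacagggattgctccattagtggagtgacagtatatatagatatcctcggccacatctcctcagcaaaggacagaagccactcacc
Lcn2: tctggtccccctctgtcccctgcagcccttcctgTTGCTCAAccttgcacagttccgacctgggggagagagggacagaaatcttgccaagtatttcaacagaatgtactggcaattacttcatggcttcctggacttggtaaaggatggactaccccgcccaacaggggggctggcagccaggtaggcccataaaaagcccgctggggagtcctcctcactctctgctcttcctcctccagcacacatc

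Of the 10 genes, 7 had a window that was searched, and Orm1, Hp and Cd14 did not. Member windows on chromosome 18, where Cd14 lies, were left out, whereas the windows of all genes kept that chromosome. The C/EBP core was found in 6 of these 7, in Hpx, Lcn2, Orm2, Saa1, Saa2 and Saa3, and in 36.8% of all 32851 windows of that length. Saa3 had 4 matches, Saa1, Orm2 and Hpx had 2 each, and Saa2 and Lcn2 had 1 each. The match that starts 182 bases before the Saa1 start site, TTGCACAA, has the same letters as the one 183 bases before that of Saa2. The interleukin-6 response element CTGGGAA was found in Apcs alone of these 7 (9.1% of all windows), and so was the STAT palindrome TTCNNNGAA (7.02%). The kappaB motif was found in 0 of 7 windows, against 7.25% of all. A match is a description of letters, and bases outside these windows were not searched.

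Signals are the deposited intensities of each probe set, which say how bright it was and are comparable between arrays for one probe set only. Their 2% trimmed mean was between 1500.9 and 1501.3 on all 6 arrays. At the bright end the arrays still differed: the 99th percentile was 36282, 46538 and 37037 in BDL replicates 1, 12 and 3, against 29393, 37306 and 41252 in sham replicates 1, 2 and 3. Sham replicate 1 also stood apart at the dim end, with a 10th percentile of 135, against 33.7 to 62.3 on the other arrays. The beta-actin 3′ to 5′ signal ratio, which reflects how intact the RNA was, averaged 1.32 ± 0.0983 in the BDL mice and 1.53 ± 0.00817 in the sham mice (SD, n = 3 each; exact two-sided permutation p = 0.1, the smallest that 3 against 3 allows). The same ratio of GAPDH averaged 0.722 ± 0.0282 in the BDL mice and 0.719 ± 0.0839 in the sham mice (SD, n = 3 each; exact two-sided permutation p = 1). All 13 hepatocyte markers on the array were above the floor of 153 on every array, with albumin (Alb) at 147870 to 199675 in the BDL mice, against 125084 to 170913 in the sham mice. The number of arrays limits the precision of everything below.

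**Figure D1:**
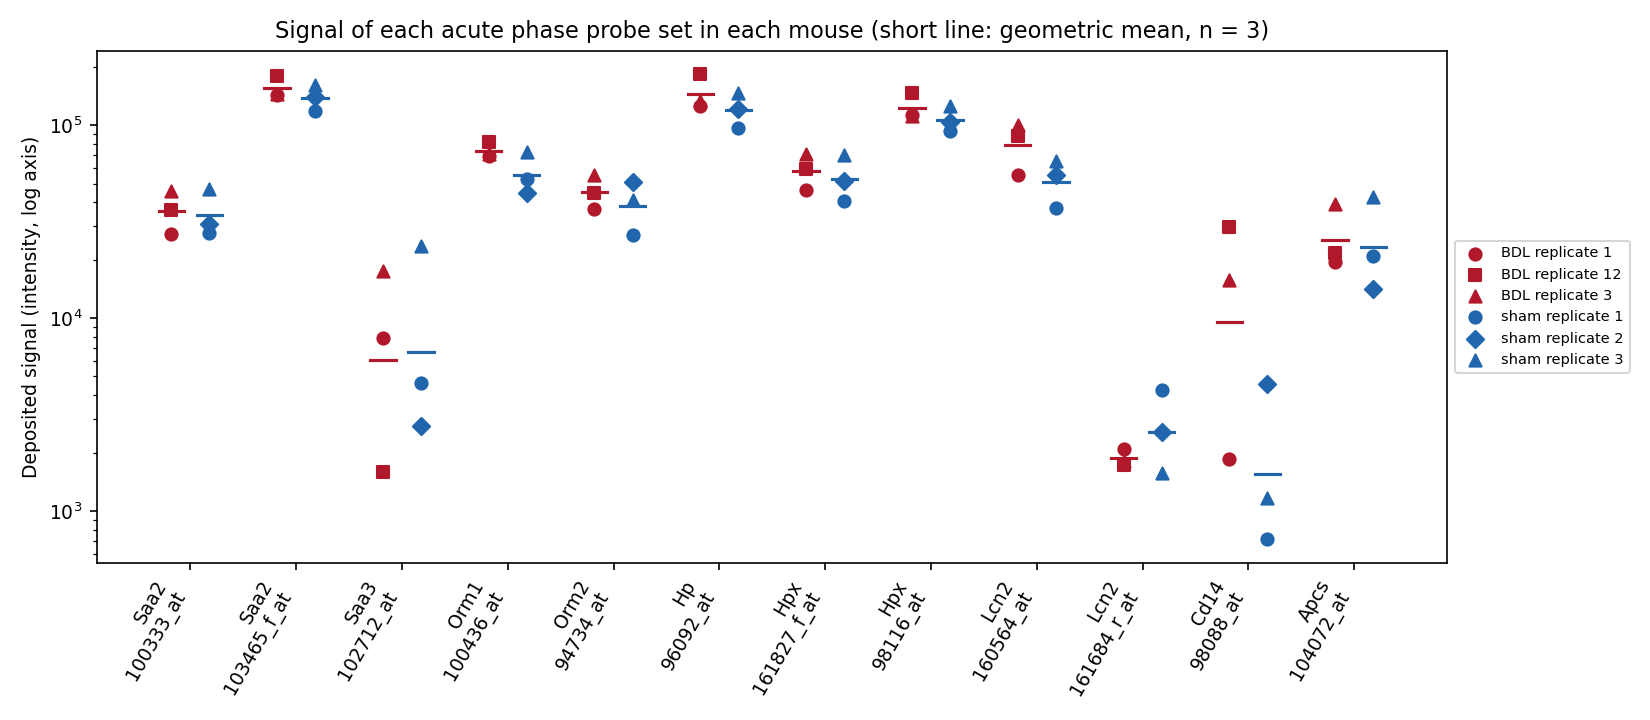
Deposited signal (vertical log axis, intensity) of the 12 acute phase probe sets in each of 3 BDL mice (red) and 3 sham mice (blue), with the geometric mean of each group as a short line. The groups overlap for every probe set, and Cd14 and Saa3 are spread more widely than the others within both groups.

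The comparison asked whether acute phase reactants differed 1 day after bile duct ligation from 1 day after sham surgery. For 11 of the 12 probe sets the 95% interval of the difference included 0. The 8 secreted reactants had BDL over sham ratios of 0.91 to 1.55 by the brightest probe set of each. Cd14, the membrane receptor for bacterial lipopolysaccharide, was the exception in size: its geometric mean in BDL was 6.11-fold that in sham mice. That difference did not pass the threshold over all probe sets.

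Over all 9539 probe sets tested, limma called 0 at an adjusted p under 0.05, and 0% is also the share of the 12 acute phase probe sets. At an unadjusted p under 0.05 there was 1 of 12, that of Cd14, where 5.79% of all probe sets reached it, 3.4% higher and 2.39% lower in BDL. The groups did not overlap for 0 of 12, where they did not for 10.6% of all probe sets, 6.31% higher and 4.32% lower in BDL. A difference above 0 was found for 10 of 12, where it was 48.8% of all. By gene, 8 of 9 were above 0, with a median log2 difference of 0.23, and over all 6894 genes tested 49.2% were above 0 with a median of -0.01. Of the 13 hepatocyte markers tested, 7 were above 0, with a median of 0.01. Among the brightest of these markers, Alb differed by 0.21, Apoa1 by 0.27, Ahsg by 0.17, Serpina1c by 0.29, Cyp2e1 by 0.01 and Cps1 by -0.13. Of the other markers in this list, Cyp3a11 and Tat were above 0, and Ttr, G6pc, Fah, Pck1 and Ass1 were below 0. A small positive difference was thus also found for some bright hepatocyte markers. It did not hold for the 13 as a whole, whose median was 0.01, against 0.23 for the reactants. All 12 acute phase probe sets were above the floor on every array, so none entered through one group alone. In bulk liver, fewer cells of a type and less RNA per cell cannot be told apart.

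The arrays differed in how many of the 9 genes were high on them. Of these genes, 6 were lowest on sham replicate 1, the array with the lowest 99th percentile, and 5 were highest on BDL replicate 12, the array with the highest. Each of the 9 genes was also taken as the difference from its own mean. The median of these was -0.08, 0.35 and 0.42 on BDL replicates 1, 12 and 3. It was -0.45, -0.14 and 0.14 on sham replicates 1, 2 and 3. BDL replicates 1 and 3 and sham replicate 2 had nearly equal 99th percentiles. The median BDL minus sham difference of the 9 genes was 0.08 after quantile normalization, which gives all arrays the same distribution, 0.25 with arrays centred on the median and 0.50 with array weights. After quantile normalization both Saa2 and both Hpx probe sets were below 0. The part of the bright end in these values was not tested.

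**Figure D2:**
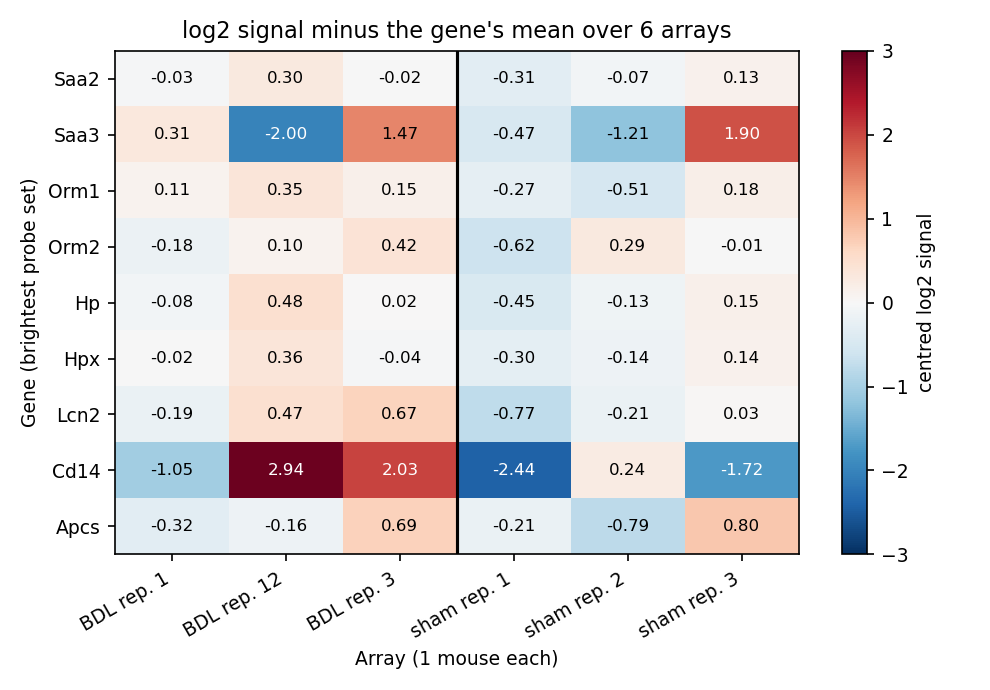
Centred log2 signal of the brightest probe set of each of 9 acute phase genes (rows) on 6 arrays (columns, BDL left of the line and sham right of it), as the difference from the gene's own mean. Cd14 runs from 2.94 on BDL replicate 12 to -2.44 on sham replicate 1, and Saa3 is lowest on BDL replicate 12 and highest, at 1.90, on sham replicate 3, whereas the value of Hp farthest from its mean is 0.48.

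Saa2 encodes one of the main circulating serum amyloid A proteins. Its probe set 103465_f_at gave 144508, 181285 and 146098 in the BDL mice, against 119136, 140389 and 161799 in the sham mice. BDL replicate 12 was above every sham mouse, and sham replicate 3 was above the other BDL mice. The log2 difference was 0.17 (SE 0.29), 1.12-fold. The other probe set, 100333_at, gave 27504, 36400 and 45968 in the BDL mice, against 27700, 30957 and 47067 in the sham mice, and its log2 difference was 0.06 (SE 0.34). On this probe set replicate 3 was the highest mouse of each group and the ranges almost coincided. The 95% intervals of the fold were 0.72 to 1.76 for the brighter probe set and 0.61 to 1.78 for the other. Because Saa1 and Saa2 have each carried the symbol of the other, and probe sequences were not compared, these values cannot be assigned to one of them.

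Saa3 is a serum amyloid A that in mice is also made by macrophages and fat cells. Its signals were 7946, 1598 and 17697 in the BDL mice, against 4606, 2756 and 23848 in the sham mice. The lowest value of all was BDL replicate 12 and the highest was sham replicate 3, with an 11.1-fold range within BDL and an 8.65-fold range within sham. The log2 difference was -0.14 (SE 0.98), with a 95% interval of the fold from 0.19 to 4.23. It was 0.82 without BDL replicate 12, 0.77 without sham replicate 3 and -0.91 without BDL replicate 3. The pooled within-group SD of 1.70 on the log2 scale was exceeded by 0.17% of the genes tested. At this spread a difference of several fold was not detectable.

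Orosomucoid 1, alpha-1-acid glycoprotein, is encoded by Orm1. Its signals were 69128, 81946 and 71135 in the BDL mice, against 52999, 44893 and 72484 in the sham mice. Every BDL mouse was above sham replicates 1 and 2, and sham replicate 3 was above BDL replicates 1 and 3. The log2 difference was 0.41 (SE 0.30), 1.33-fold, with a limma adjusted p of 0.845. Orm2, its neighbour in the same cluster, gave 36826, 44664 and 55669 in the BDL mice, against 26993, 50664 and 41241 in the sham mice. Here sham replicate 2, not 3, was the highest sham mouse. The log2 difference of Orm2 was 0.23 (SE 0.34), and it was -0.02 without sham replicate 1.

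Hp and Hpx scavenge the products of broken red cells. Hp, haptoglobin, gave 125423, 184776 and 134379 in the BDL mice, against 97128, 121322 and 146625 in the sham mice. All 3 BDL mice were above sham replicates 1 and 2, and sham replicate 3 was within the BDL range. The log2 difference of Hp was 0.28 (SE 0.31), 1.22-fold, and 0.11 without BDL replicate 12. Hpx, hemopexin, gave 113812, 148174 and 112012 in the BDL mice with probe set 98116_at, against 93287, 104374 and 126774 in the sham mice. The order of the sham mice was the same as for Hp, and the log2 difference was 0.20 (SE 0.29). Its other probe set, 161827_f_at, gave 46239, 59352 and 71354 in the BDL mice, against 40406, 51658 and 70667 in the sham mice. On it replicate 3 was the highest mouse of each group, and the log2 difference was 0.14 (SE 0.33).

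Lcn2, lipocalin 2, is made by hepatocytes in the acute phase and is also stored in neutrophil granules. Probe set 160564_at gave 55676, 88293 and 101006 in the BDL mice, against 37344, 55050.4 and 65153 in the sham mice. BDL replicates 12 and 3 were above all sham mice, and BDL replicate 1 was below sham replicate 3. The log2 difference was 0.63 (SE 0.36), 1.55-fold, with a 95% interval of the fold from 0.88 to 2.71. Limma's adjusted p was 0.831, and the exact two-sided permutation p was 0.2. The second probe set, 161684_r_at, was dim and went the other way: it gave 2095, 1731 and 1833 in the BDL mice, against 4253, 2587 and 1572 in the sham mice. Its log2 difference was -0.46 (SE 0.39), and sham replicate 1 was its highest array. The 2 probe sets of Lcn2 therefore disagreed in sign.

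Apcs gave 19548, 21794 and 39255 in the BDL mice, against 21121, 14135 and 42438 in the sham mice. Replicate 3 was the highest mouse of each group, the remaining 4 lay between 14135 and 21794, and the groups overlapped throughout. The log2 difference was 0.13 (SE 0.46). With sham replicate 3 left out it was 0.57, and with sham replicate 2 left out -0.23.

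**Figure D3:**
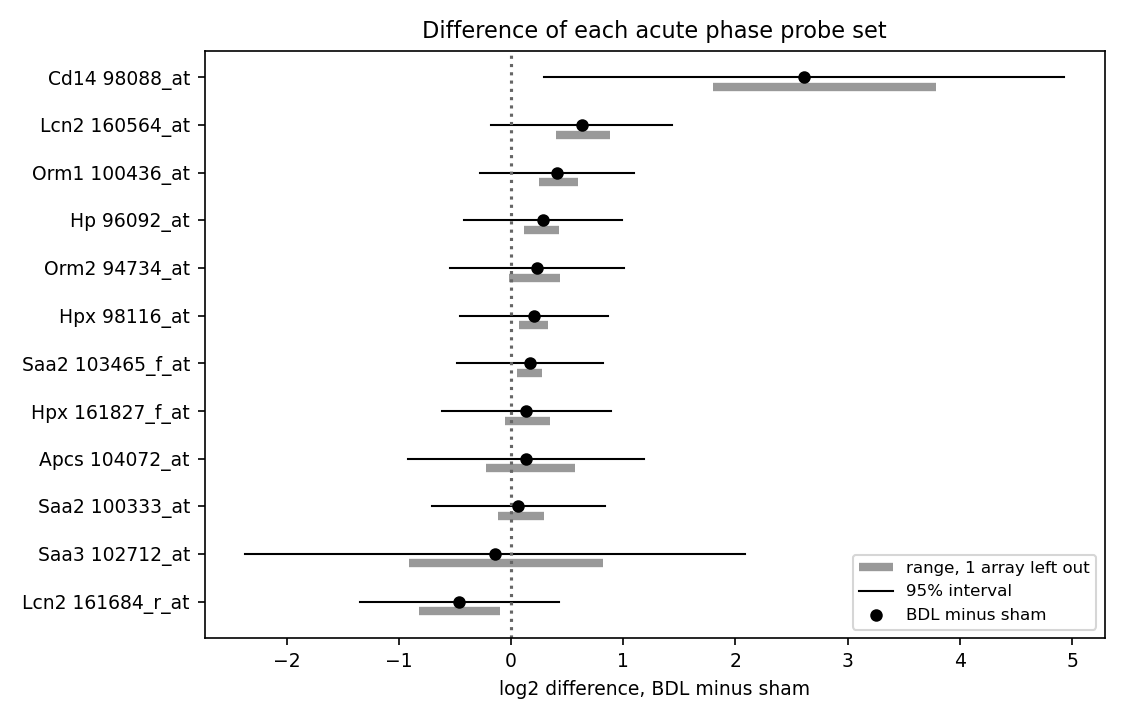
Log2 difference, BDL minus sham (horizontal axis), of the 12 acute phase probe sets (rows), with limma's 95% interval as a thin line and the range of values with 1 array left out as a grey bar. Only the interval of Cd14, 0.30 to 4.93, lies wholly above 0, and the other 11 include 0.

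Cd14 gave 1873, 29692 and 15816 in the BDL mice, against 717, 4568 and 1176 in the sham mice. BDL replicates 12 and 3 were above every sham mouse, whereas BDL replicate 1 was below sham replicate 2, so that the groups overlapped. The mean signal was 15794 ± 13909 in BDL and 2154 ± 2103 in sham mice (SD, n = 3 each). The log2 difference was 2.61 (SE 1.02), with a 95% interval of the fold from 1.23 to 30.4. Limma gave an unadjusted p of 0.0312 and an adjusted p of 0.831, and the exact two-sided permutation p was 0.2. Among the 6894 genes tested 0 had a higher positive difference, while 31 did with array weights, 4 with the replicate number as a block and 1 with a lower floor. Its pooled within-group SD of 1.77 was exceeded by 0.12% of genes. Without BDL replicate 12 the difference was 1.80 (unadjusted p = 0.120 by limma) and 24 other genes had a higher one. Without BDL replicate 1 it was 3.79 (unadjusted p = 0.00113 by limma, adjusted p = 0.926). Leaving out BDL replicate 3 gave 2.25 (unadjusted p = 0.0885 by limma), and leaving out sham replicate 1 gave 2.05 (0.121), sham replicate 2 gave 3.38 (0.0135) and sham replicate 3 gave 2.40 (0.0826).

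Macrophages, which carry CD14, and neutrophils, which hold lipocalin 2, were followed by their own markers. The 16 macrophage markers on the array, of 16 listed, summed to 17931, 12065 and 19560 in BDL replicates 1, 12 and 3, against 13048, 11303 and 7656 in sham replicates 1, 2 and 3. Of the 14 tested, 12 had a log2 difference above 0, like Cd14, where this held for 49.2% of all genes, and their median was 0.74. The groups did not overlap for 2 of the 14, Ctss and Tyrobp, both higher in BDL (6.31% of all genes), and 0 passed the adjusted threshold. BDL replicate 12, the mouse with the highest Cd14, had the lowest sum of the BDL mice. On that array the Kupffer cell receptor Clec4f was at 751, against 1742 and 1736 in the other BDL mice, and Marco was at 40.7, under the floor, against 458 and 976. Adgre1, Csf1r, C1qa, C1qc, Cd5l, Lyz2, Tyrobp, Msr1, Cybb and Lgals3 were also lowest of the BDL mice on that array, whereas C1qb and Fcer1g were not. Cd68 and Ctss, lysosomal proteins of macrophages, had their highest signals there, at 2354 and 2332, though Ctss was nearly as high, at 2197.5 and 2257.6, in the other BDL mice. The 15 neutrophil markers on the array, of 16 listed, summed to 7757, 6918 and 9888 in the BDL mice, against 13588, 8110 and 5509 in the sham mice. A sum is weighted to its brightest probe sets: Csf3r alone gave 6231 on sham replicate 1, and 2180 to 3454 on the other arrays. Sham replicate 1, with the highest neutrophil sum, had the lowest signal of the brighter Lcn2 probe set. That array also had the highest 10th percentile, 135, and the highest lymphocyte and cholangiocyte marker sums, 8825 and 1612. The part of its dim end in these sums was not tested. Of the 12 neutrophil markers tested, 4 had a log2 difference above 0 and 8 below, with a median of -0.11. Camp, an antimicrobial granule peptide, was lower in BDL without overlap, at -0.60 (SE 0.33), as were 4.26% of all genes. Its highest BDL signal was 727 and its lowest sham signal 732. Elane, neutrophil elastase, differed by -0.74 (SE 0.39). The calprotectin gene S100a8 differed the other way and gave 1172, 385 and 2862 in the BDL mice, against 888, 693 and 465 in the sham mice. Its partner S100a9 gave 585, 304 and 1782 in the BDL mice, against 192, 239 and 311 in the sham mice. Both were highest on BDL replicate 3 and overlapped between the groups. S100a8 differed by 0.72 (SE 0.65) and S100a9 by 1.49 (SE 0.59). Of the neutrophil markers only S100a9 had an unadjusted p under 0.05 (0.0324 by limma, adjusted p = 0.831), where 5.7% of all genes had one. None of the macrophage or neutrophil markers was at or under the floor on all 6 arrays, but Mmp8 and Mmp9 were on 5, and Marco, Fcer1g and Il1b on 4. Adipose markers, 6 of 8 on the array, summed to 8650, 20397 and 8319 in the BDL mice, against 5488, 15031 and 6693 in the sham mice. The peaks were those of 1 gene, Cidec, a lipid droplet protein, at 13736 on BDL replicate 12 and 6834 on sham replicate 2. Without Cidec the other 5 summed to 7291, 6661 and 6645 in the BDL mice, against 5317, 8197 and 6608 in the sham mice. Most of that remainder was again 1 gene, Lep, at 4542 to 5270 in the BDL mice, against 3264 to 6168 in the sham mice. The part of these markers in the Cd14, Saa3 and Lcn2 values was not tested.

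**Figure D4:**
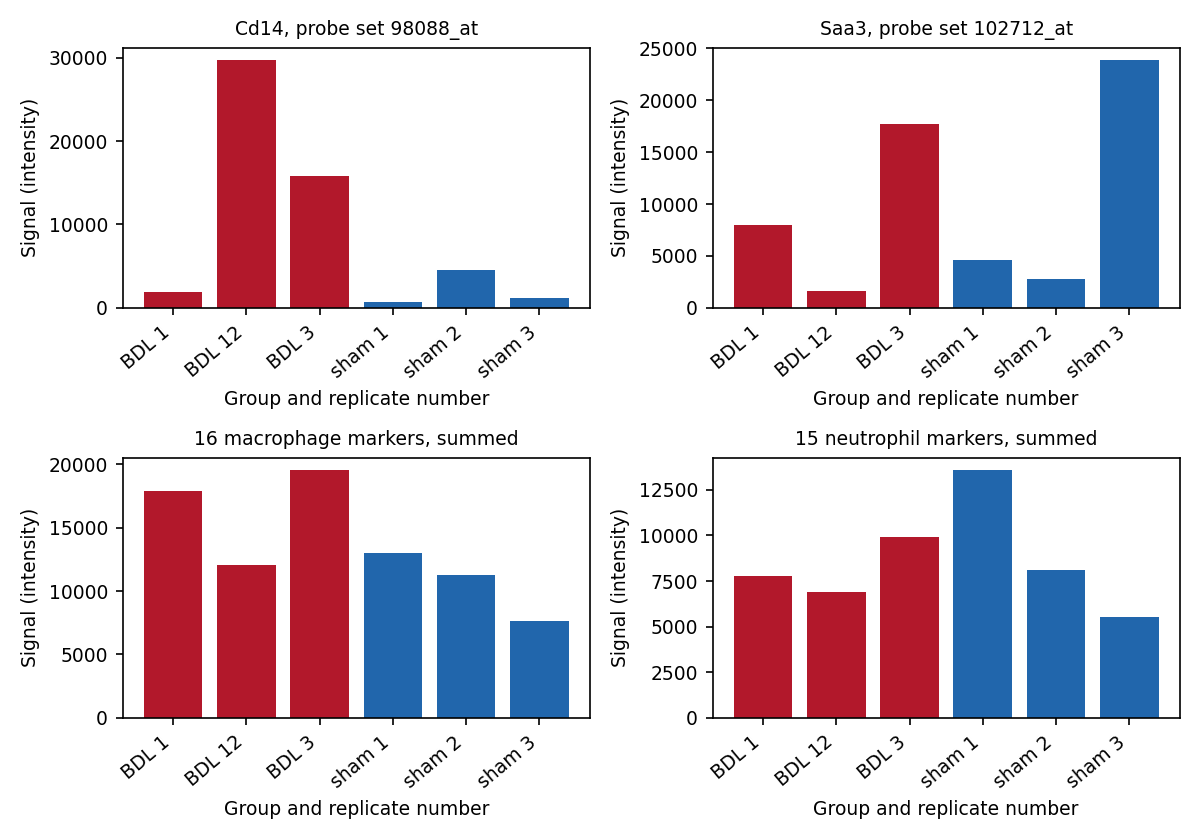
Signal (intensity, linear axis from 0) of Cd14 and Saa3 and the summed signal of 16 macrophage and 15 neutrophil markers on each array, BDL mice in red and sham mice in blue. The bar of Cd14 is tallest on BDL replicate 12 at 29692, where the macrophage sum is the lowest of the BDL mice at 12065 and Saa3 is the lowest of all at 1598.

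Other positive acute phase proteins, such as fibrinogen, ceruloplasmin and complement proteins, had log2 differences of -0.81 to 0.61. The lowest was that of Saa4, a serum amyloid A made constitutively in liver and named here after its value was seen, and the next lowest was -0.58. Of 23 listed, 17 were tested and 0 passed the adjusted threshold. An unadjusted p under 0.05 was reached by 0 of the 17 in either direction, and by 5.7% of all genes tested. Their median log2 difference was 0.19, and 15 were above 0. Cp, the copper oxidase ceruloplasmin, gave 40406, 24286 and 73560.4 in the BDL mice, against 20380.4, 22920.2 and 43722 in the sham mice. All BDL mice were above sham replicates 1 and 2, and BDL replicates 1 and 12 were below sham replicate 3, with a log2 difference of 0.61 (SE 0.47). Fgb, the fibrinogen beta chain, differed by 0.44 (SE 0.50) and Lrg1, a leucine-rich glycoprotein of plasma, by 0.27 (SE 0.30). Cfb, complement factor B, differed by -0.58 (SE 0.45), with another of its probe sets at -0.44. Groups overlapped for each of these 4.

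Negative acute phase proteins are plasma proteins whose synthesis drops in inflammation. Of 15 listed, 12 were tested, of which 0 passed the adjusted threshold. An unadjusted p under 0.05 was reached by 1 gene, lower in BDL, and by 0 higher genes, where 2.28% of all genes were lower at that p. The median log2 difference was 0.05, 7 were above 0, and the groups did not overlap for 2 genes, both lower in BDL, where this held for 4.26% of all genes. Ttr, transthyretin, the carrier of thyroxine and of retinol-binding protein, gave 3576, 4520.4 and 4824 in the BDL mice, against 11138, 6456 and 14576 in the sham mice. Every BDL mouse was below every sham mouse, with a log2 difference of -1.25 (SE 0.36) and a limma adjusted p of 0.830. Itih1, a heavy chain of inter-alpha-trypsin inhibitor, was 4946 ± 151 in BDL and 7733 ± 2316 in sham mice (SD, n = 3 each), also without overlap, at a log2 difference of -0.61 (SE 0.31). Serpina6, which encodes the corticosteroid carrier transcortin, differed by -1.94 (SE 0.93), and the BDL signals, 340 to 5091, enclosed those of sham replicates 2 and 3. A second probe set of Serpina6 differed by -1.36 (SE 0.50, limma unadjusted p = 0.0247). On it the groups did not overlap, lower in BDL, which held for 4.32% of all probe sets. Apoa4, an intestinal and hepatic apolipoprotein, differed by 0.97 (SE 0.70), and its signals spread over 43929 to 122832 in the BDL mice, against 16299 to 111977 in the sham mice.

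Cytokines, receptors, kinases, transcription factors and other regulators of the acute phase response were read from a list of 38, of which 27 were tested. The list mixes genes that drive the response with genes that restrain it, such as Socs3 and Nfkbia, so its median is not that of drivers alone. Of the 27, 0 passed the adjusted threshold and 1, lower in BDL, had an unadjusted p under 0.05, where 5.7% of all genes had one in either direction. The median log2 difference was 0.37, and 18 were above 0. The groups did not overlap for 2 higher and 1 lower of the 27, where this held for 10.6% of all genes in either direction. Il6st, the signalling chain gp130 shared by interleukin-6 family receptors, gave 2521, 2215 and 3269 in the BDL mice, against 1770.4, 1910 and 1487 in the sham mice. All BDL mice were above all sham mice, at a log2 difference of 0.62 (SE 0.29), and its other probe set differed by 0.37 (SE 0.31) with overlap. Jak1, a tyrosine kinase bound to gp130, gave 3049, 2637 and 3288 in the BDL mice, against 1081, 2320 and 2208 in the sham mice. These groups were apart too, at 0.75 (SE 0.36). Tyk2, another kinase of this family, differed by 0.73 (SE 0.35), with BDL replicate 3 below sham replicate 3. Cebpa, the C/EBP factor of the resting hepatocyte, gave 13216, 9638 and 8702 in the BDL mice, against 21134, 16219 and 27176 in the sham mice. Every BDL mouse was below every sham mouse, at a log2 difference of -1.02 (SE 0.32). Limma's adjusted p was 0.831 for each of these 4 genes.

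**Figure D5:**
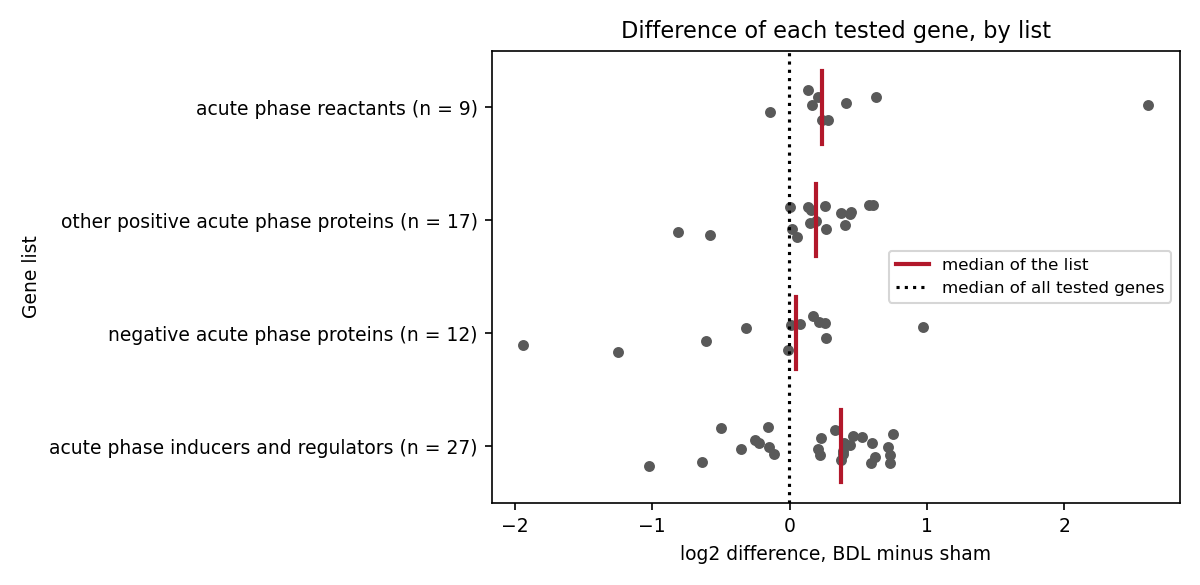
Log2 difference, BDL minus sham (horizontal axis), of each tested gene in 4 lists (rows; vertical offsets within a row carry no meaning), with the median of each list as a red bar and that of all tested genes as a dotted line. The medians are 0.23 for the acute phase reactants, 0.19 for other positive acute phase proteins, 0.05 for negative ones and 0.37 for inducers and regulators, and Cd14 is the single point at 2.61.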

How the data were processed

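Liver RNA of 3 BDL and 3 sham mice was measured on U74Av2 arrays with 20 µg cRNA. The authors used MicroArray Suite 4.0 and GeneChip software 3.1, per the series' design text, and deposited 1 linear intensity per probe set and array. The sources used here do not give the settings, the background step or the scaling target, and no scanner files, detection calls or batch labels were used. Because trimmed means (2% trimmed) agreed within 0.33%, under a limit of 5%, the intensity values were kept as scaled.

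Signals under a floor of 153, the 25th percentile of 12422 probe sets other than controls, were raised to that floor before taking log2. The 9539 probe sets above it on at least 3 of 6 arrays were fitted with lmFit and eBayes (limma 3.58.1, R 4.3.3; 4 residual and 4.67 prior degrees of freedom), BDL minus sham, without covariates, with Benjamini-Hochberg adjustment and a threshold of 0.05. SE is limma's moderated standard error. Single values were also tested by exact permutation, which with 3 against 3 cannot go below 0.1. The fit was tested on simulated data.

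Platform symbols were updated by gene ID to RefSeq (GRCm38.p6), where 10817 of 10833 probe sets with 1 symbol matched. A further 396 had several symbols and 1193 none, and these were not named. A gene is represented by its brightest probe set. The reactants and lists were chosen with earlier results of these data known. Named were all reactants and, from each other list, the 4 tested genes with the smallest unadjusted p. Alternatives were another normalization, floor, filter or variance model, array weights, a replicate block and leaving out each array.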

Additional observations from a re-analysis of the deposited data

How the results depend on the processing

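No acute phase probe set passed the adjusted threshold under any alternative run, and of 132 member values under alternatives that kept all arrays, 124 had the direction reported and 8 reversed. Another floor, filter or variance model left every member difference as it was, so those values could not reverse and say nothing about direction. The 8 reversals came from quantile normalization, array weights and the replicate block. Quantile normalization gave -0.0962 and -0.0270 for Saa2 (probe sets 100333_at and 103465_f_at) and -0.0263 and -0.00403 for Hpx (161827_f_at and 98116_at). Array weights gave 0.90 for Saa3, a median of 0.50 for the 9 genes, and 1024 probe sets at an unadjusted p under 0.05 with 0 acute phase probe sets among them. Without a filter Cd14 had an unadjusted p of 0.114 from limma, so that 0 acute phase probe sets were under 0.05. There 3 probe sets passed the adjusted threshold, those of Anxa3, Myc and Ate1, named after their values were seen, each under the floor in all sham mice, where the floor narrows the spread. The filter at the 50th percentile, which tests fewer, left 363 probe sets at an unadjusted p under 0.05.

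With 1 array left out, 307 (without BDL replicate 3) to 1177 (without sham replicate 3) probe sets, against 552 with all arrays, had an unadjusted p under 0.05, and 0 passed the adjusted threshold. Among them were 0 to 1 acute phase probe sets: 0 without BDL replicate 12, BDL replicate 3 or sham replicate 1, and without sham replicate 3 the dimmer one of Lcn2 (-0.82) in place of Cd14. The median of the 9 genes was 0.10 (without sham replicate 1) to 0.57 (without sham replicate 3). Ranges that crossed 0 were -0.12 to 0.29 for Saa2 (100333_at), -0.91 to 0.82 for Saa3, -0.23 to 0.57 for Apcs, -0.0572 to 0.35 for Hpx (161827_f_at) and -0.0203 to 0.43 for Orm2. The cause of these moves was not tested.

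The labels give both groups the numbers 1 and 3. Deviations from the group means correlated across probe sets at 0.21 between the mice numbered 1 and 0.25 between those numbered 3, which with 2 shared numbers does not establish pairs. BDL replicate 12 and sham replicate 2, which share no number, correlated at 0.29, and the other 6 combinations at -0.21 to -0.04. With the replicate number as a block, which leaves the difference to rest on numbers 1 and 3 alone, 652 probe sets had an unadjusted p under 0.05 and 0 passed the adjusted threshold, the median of the 9 genes was 0.18, Cd14 was at 2.57 (limma unadjusted p = 0.00562, adjusted p = 0.611), and 3 values reversed: Saa2 (100333_at) at -0.0222, Saa3 at 0.18 and Apcs at -0.11. The block fit had fewer residual degrees of freedom than the 4 of the main fit. Its p-values are therefore not stronger evidence than those of the main fit.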

Other observations

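Saa4, Saa-ps and Orm3 belong to the same families as the reactants above and were picked by family after their values were seen. Saa4, a serum amyloid A that is made constitutively in liver, and Orm3 are also counted among the other positive acute phase proteins. Saa4 gave 4419, 794 and 6017 in BDL replicates 1, 12 and 3, against 6909, 1356 and 12197 in sham replicates 1, 2 and 3. BDL replicate 12 was its lowest array and sham replicate 3 its highest, as for Saa3. Its log2 difference was -0.81 (SE 0.93), and its within-group SD of 1.61 was exceeded by 0.26% of the genes tested. Orm3, the gene between Orm1 and Orm2, gave 2480.1, 3958 and 3637 in the BDL mice, against 1807, 8387 and 2267 in the sham mice, with sham replicate 2 highest, as for Orm2 among the sham mice. Its log2 difference was 0.02 (SE 0.56). The pseudogene Saa-ps differed by -0.35 (SE 0.32), and its probe set may share probes with the serum amyloid A genes.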
